A study of Oryza sativa with 60 samples.

Results

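The comparison described here set 8-day-old rice seedlings against light-grown plumules, the young shoots that emerge from the germinating grain, and so follows the growth of the young shoot. The samples were taken by their labels. The series holds 60 libraries of poly(A)-selected RNA from 12 rice tissues, and 10 of them belong to these tissues, 5 for seedling8DAY (2 input and 3 treated) and 5 for plumulelLight (2 input and 3 treated). All plants were Oryza sativa cv. Nipponbare with no transgene or mutation grown on half-strength Murashige and Skoog plates. Plumules were taken from the plates soon after germination, and the light or dark in their names is the condition during germination, whereas the 8-day seedlings were collected after transfer to soil. Whether roots were part of the seedling samples is not given in the sources used here. Age, substrate and the parts of the plant taken therefore differ together and cannot be told apart in this comparison.

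Each tissue was measured in 2 ways. Expression is given as TPM, a level of transcripts corrected for gene length and for the total of the library, in 2 libraries per tissue. Pseudouridine (Ψ), the isomer of uridine that pseudouridine synthases make in tRNA, rRNA and mRNA, was mapped by BID-seq, in which bisulfite turns Ψ into a deletion on reverse transcription. The Ψ fraction is the calibrated share of transcripts that carry Ψ at 1 base, and it is 1 pooled value per tissue.

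A leaf becomes green while its plastids mature. The plastid genome encodes core subunits of both photosystems, of the cytochrome b6f complex, the ATP synthase and an NADH dehydrogenase-like (NDH) complex, and also ribosomal proteins and 4 subunits of its own bacterial-type RNA polymerase. This polymerase reads mainly the photosynthesis genes, and a nuclear-encoded phage-type polymerase reads the rpoB operon, which encodes subunits of the bacterial-type enzyme. These are the genes that can be followed here by name, because the files pair no nuclear identifier with a gene name.

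The TPM values correspond to about 4183137 and 3198077 reads on genes in the seedling libraries and to about 7650591 and 6573768 in the light plumule libraries, as recovered from the low values. Read numbers given below come from the same estimate. The plumule libraries differed by no more than counting noise (chi-square per gene 0.993 over 8777 genes, p = 0.678), so their mean was entered as 1 sample. The seedling libraries differed by slightly more than counting noise (chi-square per gene 1.041 over 10219 genes) and entered as separate samples. The study describes its replicates as biological but does not say that these libraries came from separate plants, so the spread may be technical. The light plumule, as 1 sample, has no spread of its own, and the p-values rest on a spread pooled over the tissues whose 2 libraries were kept apart. Among these the light radicle libraries differed most (chi-square per gene 7.951), and without that tissue 12111 genes were called in place of 8993. Log2 levels of the seedling libraries correlated with those of the light plumule at r = 0.935 to 0.937 and with those of the flag leaves at 0.798 to 0.809. The light plumule libraries correlated with the flag leaves at 0.723 to 0.737.

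Over all genes, 8993 of 29987 tested (30.0%) differed between the tissues, 4288 (14.3%) higher in seedlings and 4705 (15.7%) lower, by limma on log2(TPM + 1) with Benjamini-Hochberg adjusted p under 0.05, written as called from here on. The median log2 change over all genes was -0.06. Libraries of the groups did not overlap, with seedlings above, for 30.8% of the genes tested, and with seedlings below for 40.3%.

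Genes of the plastid genome were higher in 8-day seedlings. Of 54 named plastid genes, counting copies in the inverted repeats once, 53 were tested, 37 were called higher by limma and 0 were called lower, against 14.3% and 15.7% of all genes. Their median log2 change was 1.37. At an unadjusted p under 0.05 they numbered 39 higher and 0 lower, and voom weights called 41 higher and 0 lower. Seedling libraries lay above plumule libraries without overlap for 50 of the 53 genes. In all, the 127 listed plastid genes, named or not, took 3116 and 3167 TPM in the seedling libraries, against 1006 and 956 TPM in the light plumule libraries. In these bulk samples, more plastid RNA per cell and more cells with developed plastids cannot be told apart. RNA was selected by poly(A), which samples plastid RNA only in part.

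**Figure D1:**
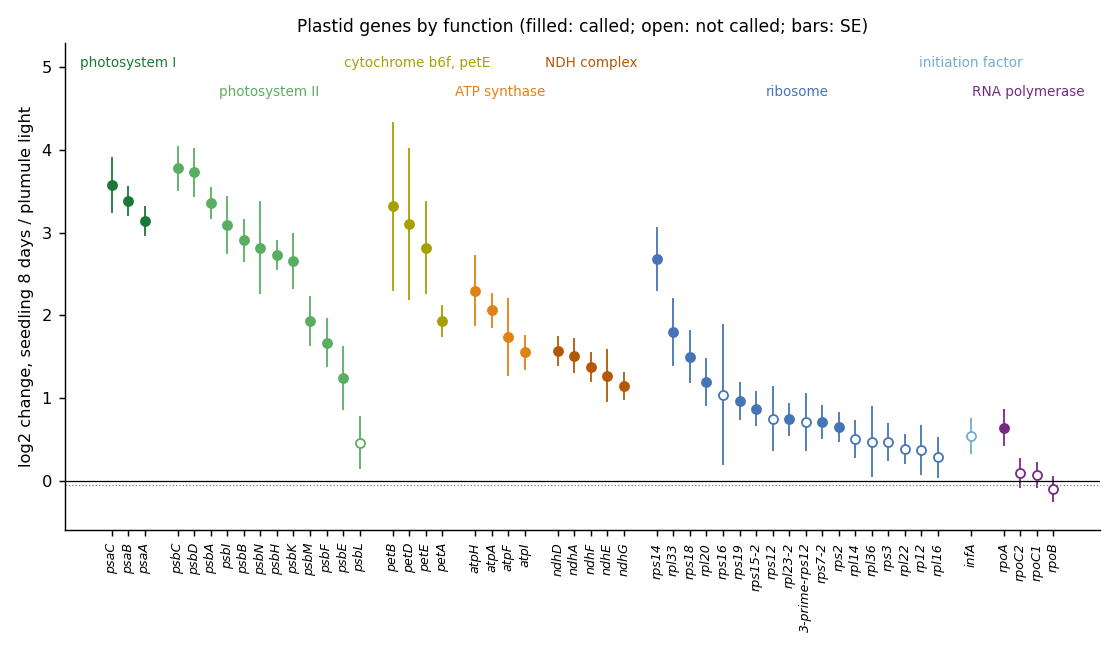
Log2 change (seedling 8 days over plumule light, log2(TPM + 1) scale) of named plastid genes, grouped by function and sorted within a group. Points are estimates, bars are standard errors, filled points were called and open points were not, and the dotted line is the median of all genes at -0.06. Photosystem genes reach 3.78, whereas rpoB, rpoC1 and rpoC2 lie between -0.10 and 0.09.

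Photosystem I was represented by 3 genes, all higher. The gene psaA encodes a reaction-centre subunit, and it had 16.9 and 15 TPM in seedlings, against 1.06 and 0.795 TPM in light plumules. Its partner psaB had 22 and 20.2 TPM in seedlings, against 1.16 and 1.07 TPM in plumules. The seedling values stood far above the plumule values for both, with log2 changes of 3.14 ± 0.18 and 3.38 ± 0.18 (SE) and limma adjusted p of 1.87e-07 and 1.31e-07. The gene psaC, for the iron-sulfur subunit that passes electrons to ferredoxin, had 50.9 and 51.7 TPM in seedlings, against 4.54 and 2.21 TPM in plumules (log2 change 3.58 ± 0.34, adjusted p = 1.12e-05). Summed over the 3 genes, photosystem I took 89.8 and 86.9 TPM in seedlings and 6.77 and 4.07 TPM in plumules.

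Photosystem II followed the same course in 11 of 12 genes. The largest changes were those of psbC, which encodes a chlorophyll-binding antenna protein, and of its neighbour psbD, for the reaction-centre protein D2. The level of psbC was 53.9 and 52.8 TPM in seedlings, against 2.80 and 3.13 TPM in plumules, 18.0-fold in TPM (log2 change 3.78 ± 0.27, adjusted p = 1.26e-06). The level of psbD was 39.2 and 42.7 TPM in seedlings, against 2.11 and 2.21 TPM in plumules, 19-fold in TPM (log2 change 3.73 ± 0.30, adjusted p = 3.14e-06). The gene psbA, for the D1 protein that is replaced under light, had 36.1 and 37.4 TPM in seedlings, against 2.97 and 2.41 TPM in plumules (log2 change 3.36 ± 0.19, adjusted p = 1.57e-07). In each of these genes the seedling libraries lay close together and the plumule libraries did not come near them. The listed spans of psbD and psbC overlap, so their reads cannot be fully told apart.

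On the log2(TPM + 1) scale the other photosystem II genes changed by less than these 3. The second core antenna gene, psbB, had 117 and 116 TPM in seedlings, against 14.4 and 14.8 TPM in plumules (log2 change 2.91 ± 0.26). The small-subunit gene psbM had 123 and 120 TPM in seedlings, against 29.0 and 33.2 TPM in plumules (1.93 ± 0.30). The gene psbE, for the alpha subunit of cytochrome b559, had 5.36 and 4.47 TPM in seedlings, against 1.94 and 1.04 TPM in plumules (1.24 ± 0.39, adjusted p = 0.0314). It lost its call with pseudocount 0.1, with quantile normalization, and without either seedling replicate or plumule replicate 2 (adjusted p 0.0601 to 0.237). Its neighbour psbL was the one gene not called, at 1.24 and 0.843 TPM in seedlings, against 0.637 and 0.318 TPM in plumules (adjusted p = 0.322). The remaining genes psbF, psbH, psbI, psbK and psbN were called with log2 changes of 1.67 to 3.09. The scale understates the scarce psbF, at 2.62 and 2.67 TPM in seedlings, against 0.177 and 0.121 TPM in plumules. That is 17.8-fold in TPM, but no library held more than 3 reads of psbF. The psbN gene lies on the strand opposite its neighbours, and whether the counting used strand is not given in the sources used here.

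Electron transfer and ATP synthesis genes were higher as well. Of the cytochrome b6f genes, petA, for cytochrome f, had 4.96 and 4.03 TPM in seedlings, against 0.435 and 0.433 TPM in plumules (log2 change 1.93 ± 0.19, adjusted p = 1.76e-05). The genes petB and petD were called too, but they are listed with only 6 and 8 bases, so their TPM cannot be read as a level, and they rest on 10 and 7 reads for petB and 1 and 2 reads for petD in seedlings. A gene that the file calls petE was 50.3 and 34.8 TPM in seedlings, against 5.18 and 4.93 TPM in plumules. All 4 ATP synthase genes were called, atpF not without seedling replicate 1 (adjusted p = 0.0601), with atpA, for the alpha subunit, at 16.4 and 16.9 TPM in seedlings, against 3.13 and 3.32 TPM in plumules (2.06 ± 0.21, adjusted p = 2.05e-05). The group took 70.2 and 67.2 TPM in seedlings and 13.8 and 16.5 TPM in plumules.

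The NDH complex, which returns electrons to the plastoquinone pool, had 5 tested genes, all called higher, although ndhE lost its call with only the 4 libraries in the fit, with pseudocount 0.1 and without seedling replicate 2. The log2 changes of ndhD, ndhA, ndhF, ndhE and ndhG were 1.57, 1.51, 1.37, 1.27 and 1.14. These transcripts were scarce. The best covered, ndhF, had 2.92 and 2.53 TPM in seedlings, from 20 and 14 reads, against 0.384 and 0.487 TPM in plumules, from 5 and 5 reads (log2 change 1.37 ± 0.18, adjusted p = 0.000117). For ndhE and ndhG no library held more than 3 reads, and none of the 5 genes passed a filter of 5 TPM in 2 libraries. The log2(TPM + 1) scale understates the change of genes this low: the TPM of ndhF was 6.25-fold that of plumules.

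Of the genes for the plastid RNA polymerase, 1 of 4 was called. The rpoB gene, for the beta subunit of the bacterial-type RNA polymerase, had 1.00 and 1.00 TPM in seedlings, against 1.24 and 1.06 TPM in plumules (log2 change -0.10 ± 0.16, adjusted p = 0.717). The rpoC1 gene had 1.09 and 1.10 TPM in seedlings, against 0.872 and 1.11 TPM in plumules, and rpoC2 had 1.93 and 1.98 TPM in seedlings, against 1.83 and 1.71 TPM in plumules, with adjusted p of 0.810 and 0.771. The libraries overlapped for rpoC1 and lay close together for rpoB and rpoC2, and the signs of rpoC1 and rpoC2 turned under quantile normalization. The fourth subunit gene, rpoA, stands in another operon and was called at 14.4 and 14.3 TPM in seedlings, against 8.40 and 9.31 TPM in plumules (0.64 ± 0.22, adjusted p = 0.0419), but it lost that call under 5 alternatives. They were pseudocount 0.1 and quantile normalization, and the omission of either seedling library or of plumule replicate 1.

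Ribosomal protein genes stood between these groups. Of 20 tested, 9 were called higher, beside 14.3% of all genes, and the median log2 change was 0.71. Seedling libraries lay above plumule libraries without overlap for 19 of the 20, beside 30.8% of all genes. The highest was rps14, at 32.2 and 35 TPM in seedlings, against 5.74 and 3.05 TPM in plumules (2.68 ± 0.39, adjusted p = 0.000281). It was followed by the less abundant rpl33 (1.80 ± 0.41) and rps18 (1.50 ± 0.32). The more abundant rpl20 had 80.4 and 92.1 TPM in seedlings, against 38.4 and 36.0 TPM in plumules (1.19 ± 0.29, adjusted p = 0.00797), and rps15 had 52.3 and 49.1 TPM in seedlings, against 27.3 and 27.4 TPM in plumules (0.87 ± 0.21). The initiation factor gene infA, at 21.0 and 29.3 TPM in seedlings and 14.6 and 18.9 TPM in plumules, was not called (adjusted p = 0.0924).

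Counting error limits the smaller of these changes. Of the 37 genes called higher, 23 had 10 or more reads in both seedling libraries and 13 had as many in all 4 libraries, psaB, psbA, psbB, psbC, psbD, psbM and atpA among them. By contrast, 5 of the called genes held no more than 3 reads in any of the 4 libraries. Plastid sequence also occurs in the nuclear genome of rice, so reads shared with such copies are uncertain.

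The changes were not scattered along the plastid genome. On the plus strand, rpoB, rpoC1, rpoC2, rps2, atpI, atpH, atpF and atpA follow each other between bases 19214 and 35733 of the plastid chromosome (IRGSP-1.0). Their log2 changes in that order were -0.10, 0.07, 0.09, 0.65, 1.55, 2.30, 1.74 and 2.06. The first 3 genes of this row were not called and the last 5 were. Of these, rps2 lost its call under 4 alternatives (only the 4 libraries, quantile normalization, without seedling replicate 1 and without plumule replicate 1). The ribosomal gene rps14, which had the largest change of its group, lies next to psaB and psaA on the minus strand, at 36309 to 36620, and its change of 2.68 was nearer to theirs than to the median of the ribosomal genes. The minus-strand genes rpoA, rpl36, infA, rpl14, rpl16, rps3, rpl22 and the gene listed as rp12 (between bases 74330 and 82664) held changes of 0.28 to 0.64, and just rpoA among them was called. The row psbB, psbH, petB and petD, with psbN on the opposite strand, held changes of 2.73 to 3.32. Among the NDH genes on the minus strand, psaC lies between ndhD and ndhE. Its change on the log2(TPM + 1) scale was 3.58, against 1.57 and 1.27 for them. That scale understates the change of scarce genes such as ndhD and ndhE. In TPM the change was 15.2-fold for psaC, 6.73-fold for ndhD and 8.31-fold for ndhE.

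**Figure D2:**
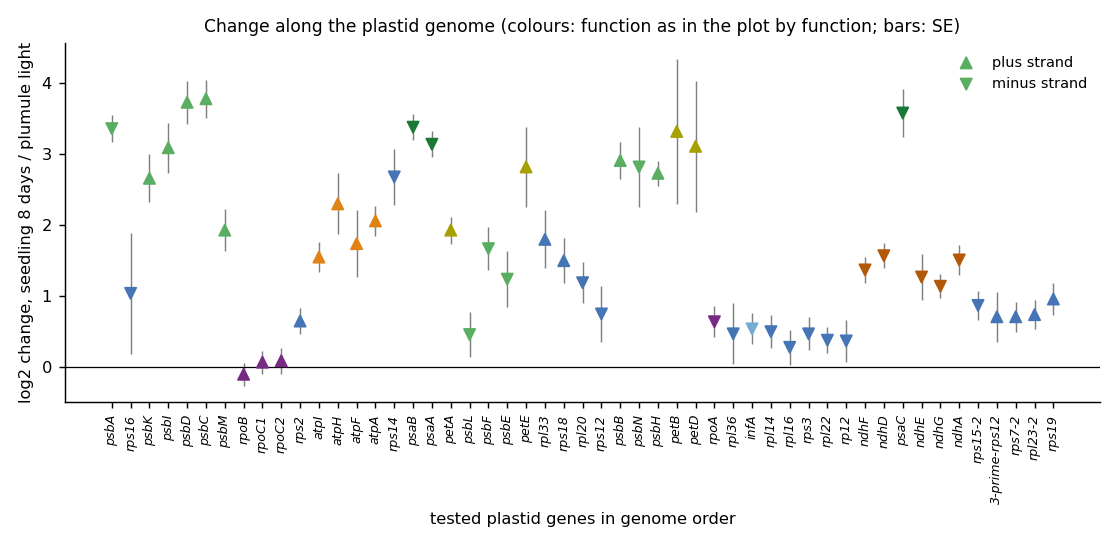
The same log2 changes (seedling 8 days over plumule light) with their standard errors, for named plastid genes in genome order. Upward triangles are plus-strand genes and downward triangles are minus-strand genes. The row from rpoB to atpA climbs over 8 genes to about 2, and the genes drawn from rpoA to rp12 stay between 0.28 and 0.64.

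In the other 10 tissues, the plastid groups ranked the tissues differently. Photosystem II genes summed to 501 and 513 TPM in 8-day seedlings, and no other library reached that level: the nearest were flag leaves at 10 days after anthesis, with 408 and 467 TPM. In those flag leaves psbC, psbD and psbM were the higher ones, at means of 62.0, 74.7 and 190 TPM. Their means in 8-day seedlings were 53.4, 41.0 and 121 TPM. The other photosystem II genes were higher in 8-day seedlings than in those flag leaves. The sum of photosystem I genes was instead 89.8 and 86.9 TPM in 8-day seedlings, against 239 and 266 TPM in 2-week seedlings and 245 and 225 TPM in flag leaves at heading, but of the 3 genes psaC alone was higher there. Its mean was 51.3 TPM in 8-day seedlings, 248 TPM in 2-week seedlings and 231 TPM in flag leaves at heading. The mean of psaA was 16.0 TPM in 8-day seedlings, against 1.50 and 1.77 TPM in those tissues, and that of psaB was 21.1 TPM, against 2.84 and 2.38 TPM. The RNA polymerase genes summed to 18.4 and 18.4 TPM in 8-day seedlings, against 12.3 and 13.2 TPM in light plumules, while they were at 1.34 and 1.59 TPM in dark plumules. Panicles at heading held 22.3 and 24 TPM of them. In 8-day seedlings, light plumules and panicles most of the sum was rpoA, at means of 14.4, 8.85 and 19.4 TPM. The means of rpoB and rpoC1 were 1.00 and 1.10 TPM in 8-day seedlings and 0.441 and 0.648 TPM in panicles. That of rpoC2 was 1.96 TPM in 8-day seedlings and 2.69 TPM in panicles. Dark plumules were also low in photosystem I transcripts, at 1.94 and 1.46 TPM. Ribosomal genes summed to 414 and 407 TPM in 8-day seedlings, against 214 and 228 TPM in light plumules.

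**Figure D3:**
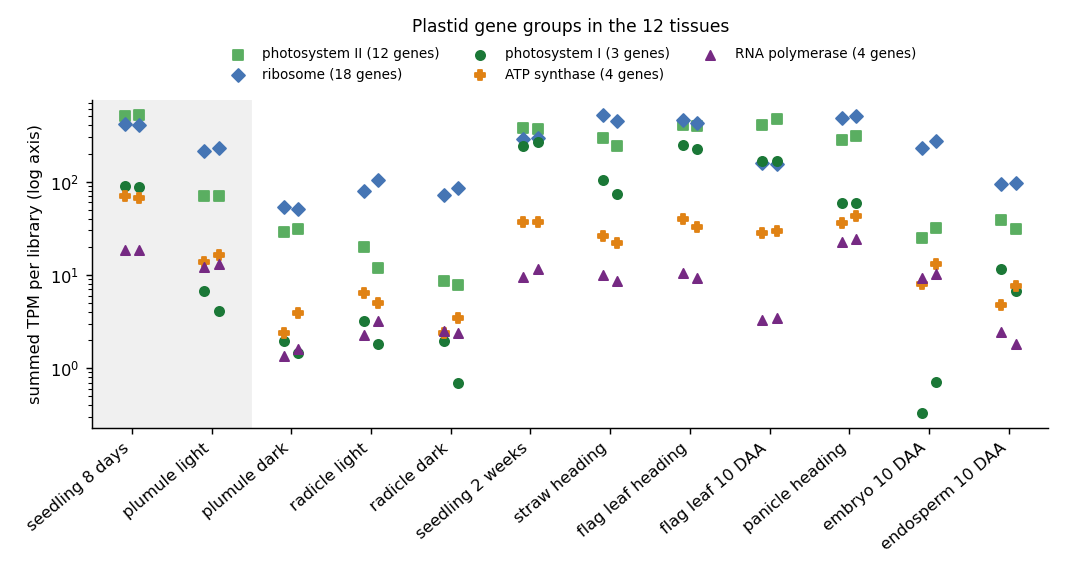
Summed TPM of 5 groups of plastid genes in each library of the 12 tissues, on a log axis, with the 8-day seedling and the light plumule shaded at the left and 2 points per tissue. Genes listed under 100 bases and second copies are left out. Photosystem I lies at 89.8 and 86.9 TPM in 8-day seedlings and at 6.77 and 4.07 TPM in light plumules. The RNA polymerase group, mostly rpoA in both tissues, lies at 18.4 and 18.4 TPM and at 12.3 and 13.2 TPM.

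Mitochondrial genes gave no such pattern. Of 53 named genes 35 were tested. Seedling libraries lay above plumule libraries without overlap for 9 of them and below for 8, beside 30.8% and 40.3% of all genes. By limma 2 were called lower in seedlings and 0 higher, beside 15.7% and 14.3% of all genes, and the median log2 change was 0.07. Of the lower ones, rps1 had 101 and 112 TPM in seedlings, against 153 and 151 TPM in plumules (log2 change -0.51 ± 0.13, adjusted p = 0.0108), and it lost its call without seedling replicate 1 (-0.44, adjusted p = 0.0582). The other, rps4, had 0.594 and 0 TPM in seedlings, from 2 and 0 reads, against 2.65 and 3.16 TPM in plumules, from 16 and 16 reads (-1.63 ± 0.31, adjusted p = 0.0019). Both encode ribosomal proteins. No tested gene of the respiratory complexes or the ATP synthase was called. The cox3 gene, for a cytochrome c oxidase subunit, had 23.6 and 23.2 TPM in seedlings and 18.3 and 18.0 TPM in plumules (0.35 ± 0.21, adjusted p = 0.253), and atp1 had 9.87 and 9.46 TPM in seedlings and 9.83 and 9.55 TPM in plumules. Libraries did not overlap for some scarcer genes, such as nad3, a complex I gene with 1.55 and 1.26 TPM in seedlings, against 0.371 and 0.618 TPM in plumules (adjusted p = 0.0634), and cob, for cytochrome b, with 8.32 and 5.13 TPM in seedlings, against 3.06 and 4.04 TPM in plumules (adjusted p = 0.266). In the other direction, atp9 had 23.1 and 35.1 TPM in seedlings, against 43.1 and 56.6 TPM in plumules (adjusted p = 0.117). The ribosomal gene rps2-2 had 2.63 and 2.96 TPM in seedlings, against 4.60 and 4.44 TPM in plumules (limma adjusted p = 0.0513). Under alternative fits rps2-2 was called lower in 8, nad3 was called in 7, atp9 in 3 and cox3 in 2. At an unadjusted limma p under 0.05 the mitochondrial genes numbered 1 higher and 5 lower. Under other fits between 0 and 2 mitochondrial genes were called higher and between 1 and 5 lower. The 95 listed mitochondrial genes took 534 and 574 TPM in seedlings, against 712 and 737 TPM in plumules.

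Nuclear genes were called in nearly equal numbers each way, but large changes ran mostly upwards. Of 29270 tested genes with an Os identifier, 4190 were higher and 4670 lower in seedlings. With a log2 change of at least 1, a 2-fold change on the log2(TPM + 1) scale, the counts were 2973 higher and 1547 lower. At 4-fold they were 1027 and 224, and at 16-fold 101 and 22. The predominance of lower genes in the plain count was not stable, since higher genes were the majority with trimmed-mean scaling (4650 higher and 3867 lower), with voom weights (6871 and 6641) and without seedling replicate 2 (3581 and 3401), over all genes.

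The largest nuclear changes joined high levels in one tissue with very low levels in the other. Of the genes called, free of overlap and at 32 TPM or more on average, the largest rise was that of Os08g0231400 (chromosome 8, 7994404 to 7995717), with 605 and 602 TPM in seedlings, against 0.446 and 0.415 TPM in plumules (log2 change 8.72 ± 0.33, adjusted p = 9.09e-09). This gene averaged 1155 TPM in 2-week seedlings, 972 TPM in flag leaves at heading and 28.9 TPM in dark radicles. The next was Os04g0659300 (chromosome 4, 33641298 to 33642277), with 603 and 573 TPM in seedlings, against 1.27 and 1.48 TPM in plumules (7.96 ± 0.80, adjusted p = 1.77e-05). It averaged 1535 TPM in dark radicles and 3041 TPM in 2-week seedlings but 0.149 TPM in flag leaves at heading, so its level was high in a root tissue and near 0 in a leaf. The part of roots in the seedling result was not tested.

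Of the 10 largest falls by the same rule, 9 belonged to genes with 137 TPM or more in dark plumules and 1 to a gene with 3.18 TPM there, and 5 of the 10 were genes of one listed length on chromosome 6. Os03g0738600 (chromosome 3, 30315456 to 30318959) had 3.82 and 3.30 TPM in seedlings, against 1303 and 1308 TPM in plumules (-8.17 ± 0.31, adjusted p = 9.09e-09). It averaged 777 TPM in dark plumules and 99.6 TPM in light radicles. Os02g0587000 (chromosome 2, 22626274 to 22627180) had 22.3 and 15.4 TPM in seedlings, against 2240 and 2254 TPM in plumules (-6.85 ± 0.76, adjusted p = 4.17e-05). Its mean was 1565 TPM in dark plumules and 620 TPM in embryos. No role is given for these 4 genes because nothing at hand annotates them.

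Genes that changed 4-fold also lay beside each other. Rows of 3 or more neighbouring tested genes, all called in 1 direction with at least a 4-fold change, numbered 15, of which 12 were higher and 3 lower. The row with the highest sum in seedlings held 4 genes on chromosome 12 (11262587 to 11322505) that summed to 10627 and 11217 TPM in seedlings, against 1209 and 1183 TPM in plumules. On chromosome 6, a row of 5 genes of one listed length, 575 bases each, between 18524688 and 18727299, summed to 357 and 272 TPM in seedlings, against 11953 and 12063 TPM in plumules. On chromosome 2, a further row of 5 genes with equal length (21250083 to 21287447) summed to 40.5 and 41.6 TPM in seedlings, against 0.471 and 0.270 TPM in plumules. Genes of equal length and near-equal values in such a row may be copies that share reads, so the level of any 1 of them is uncertain.

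Set against the other tissues, the genes that rose 4-fold were also high in leaves. The 1027 genes had a median of 24.2 TPM in 8-day seedlings, against 2.14 TPM in light plumules, values that chose them. Levels in the other tissues did not set the change, although those libraries took part in the filter and in the fit. The medians of these genes were 37.5 TPM in 2-week seedlings, 37.5 TPM in flag leaves at heading and 28.3 TPM in straw. They were 2.92 TPM in dark plumules, 5.09 TPM in dark radicles and 0.915 TPM in embryos. Over all 29270 nuclear genes the medians lay between 5.29 TPM (endosperm) and 10.8 TPM (panicle). Of the 10 other tissues, flag leaves at heading were the highest for 24.4% of these genes, flag leaves at 10 days after anthesis for 23.3% and 2-week seedlings for 23.1%, against 15.2%, 11.3% and 9.39% of all genes. The 224 genes that fell 4-fold had their highest level in dark plumules for 53.6%, against 11.2% of all genes, and their median there was 31.7 TPM.

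**Figure D4:**
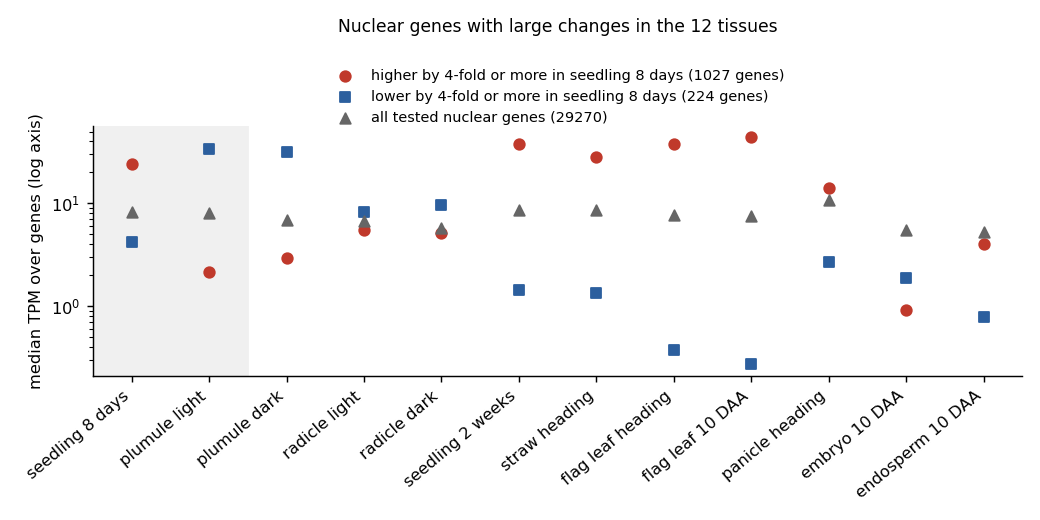
Median TPM, on a log axis, of nuclear genes 4-fold higher (1027, circles) or lower (224, squares) in 8-day seedlings than in light plumules and of all 29270 tested nuclear genes (triangles) in the 12 tissues, with the compared tissues shaded. The higher genes stand at 28.3 to 44.1 TPM in 2-week seedlings, straw and flag leaves, and the lower genes at 31.7 TPM in dark plumules and at 0.270 to 0.369 TPM in flag leaves.

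Ψ fractions were compared at 8754 of the 9126 listed sites, those with a value in both tissues. Each value pools the 3 treated libraries of a tissue, so there is no replicate error and no test, and the read depth behind a site is unknown. Each site is listed with the 7 bases around it. They are printed here in lower case with the modified base in capitals, as T for the U of the RNA, to show which sequences carried high fractions or moved together. The first pair matches the T loop of tRNAs, where nearly all tRNAs carry Ψ.
most frequent sequence: ggtTcga
next in number: ggtTcaa
also frequent: cgaTcgg
largest mean rise: gagTatc
largest mean fall: aaaTggt

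Ψ fractions were on the whole similar in both tissues, and slightly higher in seedlings at the sites that passed in both. A filter of the study marks sites of high quality in each tissue. Of the compared sites, 587 passed it in seedlings only, 904 in plumules only and 563 in both. The part of this filter in the differences was not tested. Over the 563 sites, the mean fraction was 36.4% in seedlings and 34.1% in plumules, with a median difference of 1.58 percentage points. Seedlings were higher at 375 sites, lower at 185 and equal at 3, and the values ran parallel across sites (Spearman rho 0.968, a description). At 54 sites (9.59%) the fraction was higher by 10 points or more in seedlings and at 17 (3.02%) it was lower by as much. Over all 8754 sites the median difference was 0.00, with 1303 higher (14.9%) and 950 lower (10.9%) by 10 points or more, and 1035 sites were at 0 in both tissues.

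**Figure D5:**
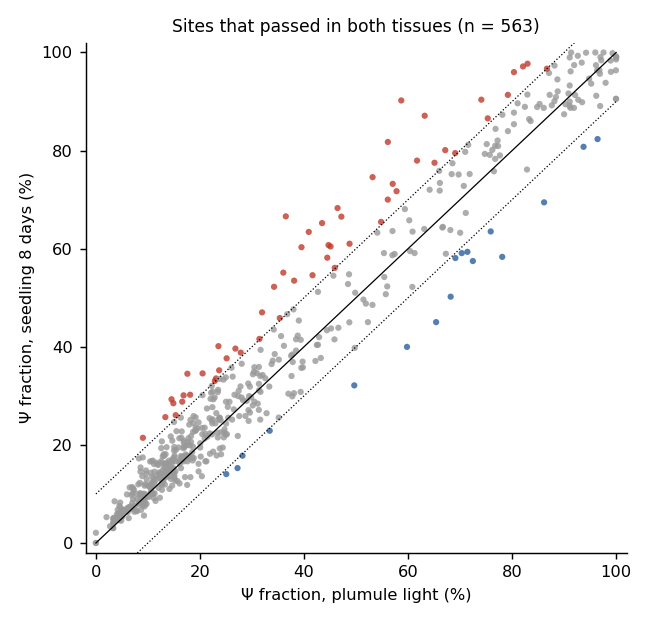
Ψ fraction in 8-day seedlings (vertical axis, %) against light plumules (horizontal axis, %) at the 563 sites that passed in both. The solid line marks equal fractions, dotted lines mark 10 points of difference, and the 54 sites above the upper line (red) outnumber the 17 below the lower one (blue).

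The same 563 sites had a mean of 33.5% in dark plumules and of 30.3% in 2-week seedlings, and the mean in 8-day seedlings was the highest of the 12 tissues. Light plumules minus dark plumules gave a median difference of 0.00 points, with 46 sites higher and 42 lower by 10 points. The 2-week minus 8-day seedlings gave -3.07 points, with 18 sites higher and 105 lower. These comparisons share a tissue with the main one, and the sites were selected in 8-day seedlings and light plumules, so the values stand side by side only. Sites that passed in 1 tissue only were left out of these statements because the filter itself favours the tissue in which the fraction is high.

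Levels of Ψ differed more between sequences than between the tissues. The T-loop sequences ggtTcga (26 sites) and ggtTcaa (21 sites) averaged 82.4% and 86.0% in seedlings, against 82.2% and 84.4% in plumules. The sequence cgaTcgg (19 sites) averaged 13.8% in seedlings and 13.6% in plumules. In each of these the seedling was higher at 11 sites, and lower at 15, 10 and 8. Without the T-loop sites the difference over passed sites had a mean of 2.39 points, against 2.26 points with them.

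Among sequences that recur at 5 or more passed sites, gagTatc had the largest mean rise and aaaTggt the largest mean fall, and they are described because of it. At all 8 gagTatc sites the seedling was higher, with fractions of 24.1% to 87.1% in seedlings and of 17.9% to 76.8% in plumules. The largest of these differences was on chromosome 5 at 12889838 (minus strand), with 87.1% in seedlings and 63.2% in plumules. All 32 listed gagTatc sites with both values include the 8 sites that chose the sequence, so they are no separate result. Of the 32, 24 were higher and 7 lower in seedlings, beside 4352 higher and 3329 lower of all 8754 sites. Among the 32 are 2 on the plastid chromosome. The site at 33851 passed in seedlings only, where the filter favours a difference, with 69.6% in seedlings and 46.5% in plumules. The site at 77814 passed in neither tissue, with 61.5% in seedlings and 51.5% in plumules.

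The aaaTggt sites all lay in unnamed RNA genes with a listed length of 103 bases. On chromosome 11 at 23224671 the fraction was 58.3% in seedlings and 78.1% in plumules. On chromosome 12 at 19953912 it was 50.2% in seedlings and 68.2% in plumules. Seedlings were lower at 5 of the 6 sites, and the exception on chromosome 3 at 16120370 had 58.2% in seedlings and 44.5% in plumules. Genes of one length with the same bases may share reads, so these sites need not be independent.

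By the 3 bases centred on the site, all groups of at least 10 passed sites had a higher mean in seedlings. The group tTc was the largest, with 119 sites at 61% in seedlings and 59.2% in plumules. The group gTg had 77 sites at 17.5% in seedlings and 15.1% in plumules. The group cTg stood out with 41.7% in seedlings and 32.5% in plumules over 14 sites, 13 of them higher in seedlings, and gTa had 33.6% in seedlings and 28.6% in plumules over 32 sites. The gTa sites include the 8 gagTatc sites picked above for their rise. The cTg sites include gacTgaa at 1204 and 32916 on chromosome 9, higher by 16.2 and 31.5 points, so these groups are not separate results. In cTg and gTa the mean differences of 9.17 and 5.02 points fell to 2.25 and 1.21 points when every listed site was used.

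Single sites changed by up to 31.5 points among those passed in both tissues. The site gacTgaa on chromosome 9 at 32916 had 90.2% in seedlings and 58.7% in plumules. The site ctgTaat on chromosome 10 at 10884593 (minus strand) had 81.8% in seedlings and 56.1% in plumules. The T-loop sequence ggtTcga on chromosome 9 at 19114018 had 63.4% in seedlings and 40.9% in plumules, 1 of 2 passed sites with these bases that were higher by 10 points. The largest falls were actTtga on chromosome 9 at 30186, with 45.0% in seedlings and 65.4% in plumules, and ccgTccg on chromosome 1 at 2077500 (minus strand), with 40.0% in seedlings and 59.8% in plumules. The site on chromosome 1 lies in a nuclear gene whose level was 96.6 TPM in seedlings and 41.8 TPM in plumules. The site agtTcga on chromosome 8 at 27071924 had 69.4% in seedlings and 86.2% in plumules.

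The first 40 kb of chromosome 9, a window chosen after the values were seen and so given with no test, held 71 sites, of which 31 were higher and 10 lower in seedlings by 10 points or more, beside 14.9% and 10.9% of all sites. Of the 32 sites there that passed in both tissues, 9 were higher and 2 lower by that margin, and without them the passed sites of the rest of the genome numbered 45 higher and 15 lower. The sequences recur within the window at fixed distances, 31712 bases for 11 pairs and 23784 bases for 13 pairs. Copies moved the same way in 9 of the 11 pairs and in 7 of the 13 pairs. The site cgaTcag at 4629 had 66.6% in seedlings and 36.5% in plumules, and its copy at 36341 had 68.3% in seedlings and 46.5% in plumules. By contrast aaaTcaa at 4719 had 66.5% in seedlings and 47.2% in plumules, while its copy at 36431 had 91.6% in seedlings and 90.8% in plumules. The unnamed RNA gene of 1811 bases that spans the copy at 4629 had 28.5 TPM in seedlings and 77.0 TPM in plumules (log2 change -1.42, limma adjusted p = 0.0432). Another of the same listed length spans the copy at 36341, with 7.29 TPM in seedlings and 23.8 TPM in plumules. Such genes may share reads, so the level of any 1 of them is uncertain. The study states that rRNA remained after its poly(A) selection, and whether these genes are rRNA genes was not tested.

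Larger differences were found where a site passed in 1 tissue only, where the filter favours a difference. The site agtTata on chromosome 9 at 35449 had 85.7% in seedlings and 18.3% in plumules. In the other direction, agcTctg on chromosome 4 at 30823738 had 9.93% in seedlings and 62.9% in plumules, and tctTcca on chromosome 7 at 22797189 (minus strand) had 11.7% in seedlings and 57.9% in plumules. Both lie within nuclear genes that have TPM values in each tissue, 14.5 TPM in seedlings and 8.76 TPM in plumules for the site on chromosome 4.

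Among the sites picked for the highest mean over both tissues, ggtTcga on chromosome 2 at 14280250 (minus strand) had 99.2% in seedlings and 100% in plumules, and gtaTggt on chromosome 2 at 28720478 had 99.9% in seedlings and 99.3% in plumules.

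Organelle RNA carried 42 sites with both values, 29 of the plastid and 13 of the mitochondrion. In the plastid the 10 T-loop sites had a median of 96.2% in seedlings and 93.6% in plumules, although 1 of them, at 11521 on the minus strand, was listed at 98.8% in seedlings and 0% in plumules. The RNA gene spanning that site had 20.5 TPM in seedlings and 1.00 TPM in plumules. The other 19 plastid sites had a median of 37.8% in seedlings and 13.7% in plumules, with 14 higher and 3 lower in seedlings, and 1 of these sites passed in both tissues. Plastid RNA was scarcer in plumules, as given above, and the part of depth in these fractions was not tested.

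Named organelle genes held 5 of these sites. In petA, whose transcript was 4.96 and 4.03 TPM in seedlings and 0.435 and 0.433 TPM in plumules, the site ctgTatt at 59836 had 75.5% in seedlings and 93.7% in plumules and passed in seedlings only. In rpl14 the site ctgTaat at 77492 (minus strand) had 95.3% in seedlings and 63.6% in plumules, and it carries the same 7 bases as the site on chromosome 10 given above. In rps15 the site attTcaa at 100898 had 24.8% in seedlings and 20.9% in plumules. In the mitochondrial gene ccmFn, which serves cytochrome c maturation, the site aatTcga at 322620 (minus strand) passed in both tissues, with 79.1% in seedlings and 75.7% in plumules. The site tgaTaat at 321396 in rps1 was near 0, at 0.987% in seedlings and 0.0785% in plumules.

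Within nuclear genes, the difference was similar along the span. In 5 equal parts of the gene span, introns included, passed sites within 1 gene were higher in seedlings by means of 1.81, 1.80, 1.54, 1.96 and 2.16 points, from the 5′ part to the 3′ part. Against expression, passed sites in genes called higher in seedlings had a mean difference of -0.66 points (77 sites), those in genes not called 2.26 points (207 sites) and those in genes called lower 2.67 points (151 sites). Across these 435 sites the difference in fraction and the log2 change had a Spearman rho of -0.226 and a Pearson r of -0.232. Over all 7845 sites in tested genes rho was 0.084. The means there were 1.99 points in genes called higher, 1.22 in genes not called and 0.09 in genes called lower. The order and the sign thus depended on the sites used, and the part of the filter in them was not tested. Sites of one gene share its level, so these correlations are descriptions with no test.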

How the data were processed

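Rice RNA from 12 tissues was measured in 60 libraries (24 input, 36 treated). The expression table as deposited by the authors holds TPM per gene for 24 libraries. The labels do not say whether these are input or treated libraries, and the aligner and counter of this table are not given in the sources used here. The site table deposited by the authors holds the Ψ fraction per site. The authors mapped reads to IRGSP-1.0, pooled deleted and undeleted reads over replicates, and calibrated deletion to a fraction. Of its flag columns, 9 were not used.

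TPM was tested with limma 3.58.1 (R 4.3.3) on log2(TPM + 1) in 1 fit of all 12 tissues with a trended prior, for genes of at least 1 TPM in at least 2 libraries. Benjamini-Hochberg adjusted p under 0.05 was called. Replicate pairs that a chi-square test could not tell apart (p above 0.05) entered as their mean, which applied to light plumule, dark plumule and endosperm. Reads per gene were recovered as TPM × length over the commonest low value in each library; 51.7% to 62.6% of values in the 4 libraries came out whole within 0.02, so read numbers are approximate and served only for depth, for comparing replicates and for voom weights as an alternative. Figures and sites used Python 3.11.15. The fit was tested on simulated data.

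Plastid and mitochondrial symbols come from the file; 56 of 59 and 53 of 53 matched RefSeq symbols of the assembly ASM3414082v1, which is not IRGSP-1.0 and gave no coordinates. Nuclear identifiers are not paired with names, so the nuclear gene lists and the marker lists for root, endosperm and meristem could not be applied. Nuclear genes named are the 2 largest rises and 2 largest falls of the 10 each that the rule gave (called, no overlap, mean of at least 32 TPM). For lists of more than 8 genes the rule gave the 3 called members with the largest change each way at 10 TPM or more. The genes psbB, psbM, psbE, psbF, psbL, rpl33, rps18, cox3, atp1, nad3, cob, atp9 and rps2-2 were added after their values were seen. So were the organelle groups by symbol that replaced the lists. By rule, sites named come from the 6 largest rises, 6 largest falls and 5 highest means passed in both tissues and the 3 largest each way passed in 1; organelle sites, recurrent sequences and the chromosome 9 window were chosen after their values were seen. Some plastid genes are counted in totals but not reported here. The comparison, groups and lists were chosen with earlier results of these data known. Alternatives concerned the samples in the fit, pseudocount, filter, scaling, weights, a replicate block, single libraries left out, and the sites used.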

Additional observations from a re-analysis of the deposited data

How the results depend on the processing

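Of 945 values of named genes under alternative fits, 865 kept direction and side of the threshold. Quantile normalization turned rpoC1 to -0.11 and rpoC2 to -0.10, and omission of plumule replicate 1 turned rpoC1 to -0.01 (with a single library left out it lay between that value and 0.16, over all alternatives between -0.11 and 0.25). Genes called numbered 8993 and 13512 with voom weights (6871 higher). Lower genes numbered 7149 with all 24 libraries as deposited and 7073 with the replicate block. Samples with the same replicate number did not deviate together (correlation 0.008), so the block result is 12903 called genes and pairs nothing. Single omissions gave 6982 to 9299 called genes.

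Of plastid groups, ATP synthase had 3 to 4 genes called, photosystem II 9 to 11 and ribosomal genes 6 to 13 over the alternatives. The NDH complex had 0 genes called with the 5 TPM filter, which left none to test, the polymerase group had 0 with pseudocount 0.1 and quantile normalization and 0 to 1 with a library left out, and the cytochrome b6f group had 1 with pseudocount 0.1 and 2 to 4 with a library left out (2 without seedling replicate 2 or plumule replicate 2). Mitochondrial genes called higher numbered 2 with only the 4 libraries and with voom weights, 1 without the radicle-light group, with all 24 libraries, with pseudocount 5 and with the block, and 0 to 1 with a library left out. Those called lower numbered 4 without the radicle-light group, 5 with all 24 libraries, no filter or the block, 1 with the 5 TPM filter and 1 to 3 with a library left out (1 without seedling replicate 1, 3 without plumule replicate 2). The causes were not tested.

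For Ψ, the mean and median differences over all sites were 1.32 and 0.00 points. They were 2.26 and 1.58 for sites passed in both (54 higher, 17 lower), 0.72 and 0.47 for sites passed in at least 1 (326 higher, 290 lower), and 0.75 as median above 0 in both (796 higher, 556 lower). In genes of 10 TPM the median was 0.33 (708 higher, 537 lower). At 5 points the counts were 2195 and 1578, and at 20 points 595 and 406. Chosen after seeing the data, passed sites without the first 40 kb of chromosome 9 gave 2.10 and 1.50 (45 higher, 15 lower) and without the T-loop sequences 2.39 and 1.62 (52 higher, 15 lower). By motif, tTc moved from 1.22 to 1.85 (passed) and 0.79 (above 0), cTg from 2.25 to 9.17 and gTa from 1.21 to 5.02 (passed). By part of the span, passed sites gave 1.81, 1.80, 1.96 and 2.16 for parts 1, 2, 4 and 5 from the 5′ end, and sites above 0 gave 0.95 for part 2 and 0.73 for part 3. The correlation with expression moved from rho 0.084 and r 0.052 to -0.226 and -0.232 (passed) and to -0.039 and -0.136 (above 0). The unknown depth per site limits all of these.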
